A study of Mus musculus with 20 samples.

Results

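A set of 10 genes that mark adipocytes was followed across 20 muscle libraries: Adipoq, Lep, Retn, Cfd, Plin1, Cidec, Plin4, Fabp4, Pparg and Car3. They were chosen by name as known adipocyte genes, with earlier results of these data known. They are 10 of the 53465 gene identifiers in the deposited data, and 10 of 10 passed the filter on low counts that left 15709 genes for testing. RNA came from skeletal muscle of wild-type mice and was sequenced after poly(A) selection. The libraries formed 4 groups of 5, since mice of each sex were either trained or left non-trained. The labels name no muscle, strain, age, training protocol, time of collection or batch, and nothing in them says that each library came from a separate mouse, so a p-value here speaks of the spread among libraries, which may be technical. Training and sex were the 2 factors compared, and replicate numbers below are names only.

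White adipocytes store triglyceride in a large lipid droplet and release hormones into the blood. Skeletal muscle holds scattered adipocytes between its fibres and fat around its vessels and fascia, so RNA from a muscle piece contains adipocyte transcripts next to those of fibres, capillaries and nerves. Some genes used as adipocyte markers are also expressed outside adipocytes: Fabp4 in capillary endothelium, and Car3 and Plin4 in muscle fibres. In bulk RNA, fewer cells of a type and less RNA per cell cannot be told apart.

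Library totals ranged from 22043145 to 38483572 expected counts, and mitochondrial DNA transcripts took 11.2% to 15.9% of them. Non-trained female replicate 1 had the highest total and the fewest genes above 0 (18727, against 19806 to 21449 in the other libraries). The tissue label matched the fibre markers: Myh4, the fast myosin heavy chain, had 42990 to 78810 CPM (counts divided by the TMM-scaled library total and multiplied by a fixed constant). The milk protein genes Csn2, Csn3 and Wap were at 0 in 20 of 20 libraries, the keratinocyte gene Krt14 in 18, and Ucp1, the brown adipocyte uncoupling protein, in 19.

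The promoters of 4 members are shown as examples: the hormone genes Adipoq and Lep and the lipid droplet genes Plin1 and Cidec. The windows of Cfd, Retn and Plin4, which hold no TTGCNNAA, are not shown, so the display favours matches. Of the 10 members, 8 had windows in the RefSeq promoter table for build GRCm38.p6, 11 windows in all; Fabp4 and Car3 had no entry. Each sequence is the 250 bases before a start annotated by RefSeq, 5′ to 3′ on the gene's strand. These starts differ in part from the gene coordinates given below. By those coordinates the Cidec window shown lies inside its gene, which starts at 113435760 on the - strand. The Plin1 window lies partly inside its gene, which starts at 79732903 on the - strand. Capitals mark TTGCNNAA (reverse TTNNGCAA), a pattern of the C/EBP family of adipogenic factors, searched on both strands. An exact direct repeat of AGGTCA with 1 base between the copies, a pattern of nuclear receptors such as Pparg, was also searched on both strands and was in 0 of the 11 windows and in 0.0335% of all windows. Adipoq lies at chr16:23146286-23146535 (+ strand), Plin1 at chr7:79732777-79733026 (- strand), Cidec (the second of its windows, the other holding no TTGCNNAA) at chr6:113434765-113435014 (- strand) and Lep at chr6:29059971-29060220 (+ strand).
Adipoq: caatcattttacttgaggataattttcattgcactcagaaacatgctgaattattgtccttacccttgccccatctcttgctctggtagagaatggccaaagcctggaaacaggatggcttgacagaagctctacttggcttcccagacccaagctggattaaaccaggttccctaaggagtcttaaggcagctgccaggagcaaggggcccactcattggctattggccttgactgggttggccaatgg
Plin1: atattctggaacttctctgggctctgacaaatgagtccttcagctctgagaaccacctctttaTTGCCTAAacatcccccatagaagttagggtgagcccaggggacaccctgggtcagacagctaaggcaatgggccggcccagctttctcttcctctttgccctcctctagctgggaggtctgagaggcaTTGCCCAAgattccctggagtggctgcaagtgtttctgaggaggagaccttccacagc
Cidec: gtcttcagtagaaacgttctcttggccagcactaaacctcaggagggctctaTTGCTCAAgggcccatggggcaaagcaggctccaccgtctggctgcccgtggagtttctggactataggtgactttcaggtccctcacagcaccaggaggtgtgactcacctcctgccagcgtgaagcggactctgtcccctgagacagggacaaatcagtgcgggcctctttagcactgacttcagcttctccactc
Lep: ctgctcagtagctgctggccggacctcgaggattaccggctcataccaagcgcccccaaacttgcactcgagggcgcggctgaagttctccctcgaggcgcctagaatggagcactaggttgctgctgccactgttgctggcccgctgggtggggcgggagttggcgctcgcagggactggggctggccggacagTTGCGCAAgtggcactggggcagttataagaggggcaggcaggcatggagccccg
TTGCNNAA occurred in 4 of the 11 windows, 1 each of Plin1, Cidec, Lep and Pparg, and 9.56% of 32851 mouse windows of 250 bases held it. In Lep it began 55 bases before the start and read TTGCGCAA, a form held by 0.164% of windows, which is also a match to TTGCNNAA. The 2 matches in Plin1 began 187 and 58 bases before its RefSeq start, and the match in Cidec 198 bases before the RefSeq start of that window. The Adipoq window, shown for comparison, holds none. These are matches of letters in a short window and not mapped binding.

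The members spanned a wide range of levels. On the TPM scale, which also divides by transcript length, the median level over 20 libraries was 2033 for Car3, 237.8 for Fabp4, 87.9 for Cfd, 63.5 for Plin4, 14.9 for Adipoq, 9.17 for Plin1, 8.62 for Cidec, 6.72 for Retn, 4.12 for Pparg and 1.195 for Lep. The members differed more in how far they varied than this order shows. From the lowest to the highest library, CPM spanned 80.4-fold for Lep, 15.0-fold for Adipoq, 11.8-fold for Plin1, 11.1-fold for Cfd, 10.96-fold for Cidec and 9.40-fold for Retn, but 4.38-fold for Car3, 4.14-fold for Pparg, 2.66-fold for Plin4 and 2.35-fold for Fabp4. The standard deviation of log2 CPM within groups was 1.05 for Adipoq, 1.07 for Plin1 and 1.54 for Lep. These placed Adipoq, Plin1 and Lep at the 95.9th, 96.0th and 98.8th percentile of all genes tested, while Fabp4 and Plin4 stood at the 54.8th and 53.1st. Cidec, Cfd and Retn stood at the 95.0th, 91.8th and 91.1st percentile, and Pparg and Car3 at the 69.25th and 58.7th. Libraries of the same sex and training state therefore differed far more than for most genes in Adipoq, Plin1, Lep, Cidec, Cfd and Retn. They did so to a lesser degree in Pparg, and about as much as for the middle of all genes in Fabp4 and Plin4. The percentiles make no allowance for the level of a gene.

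**Figure D1:**
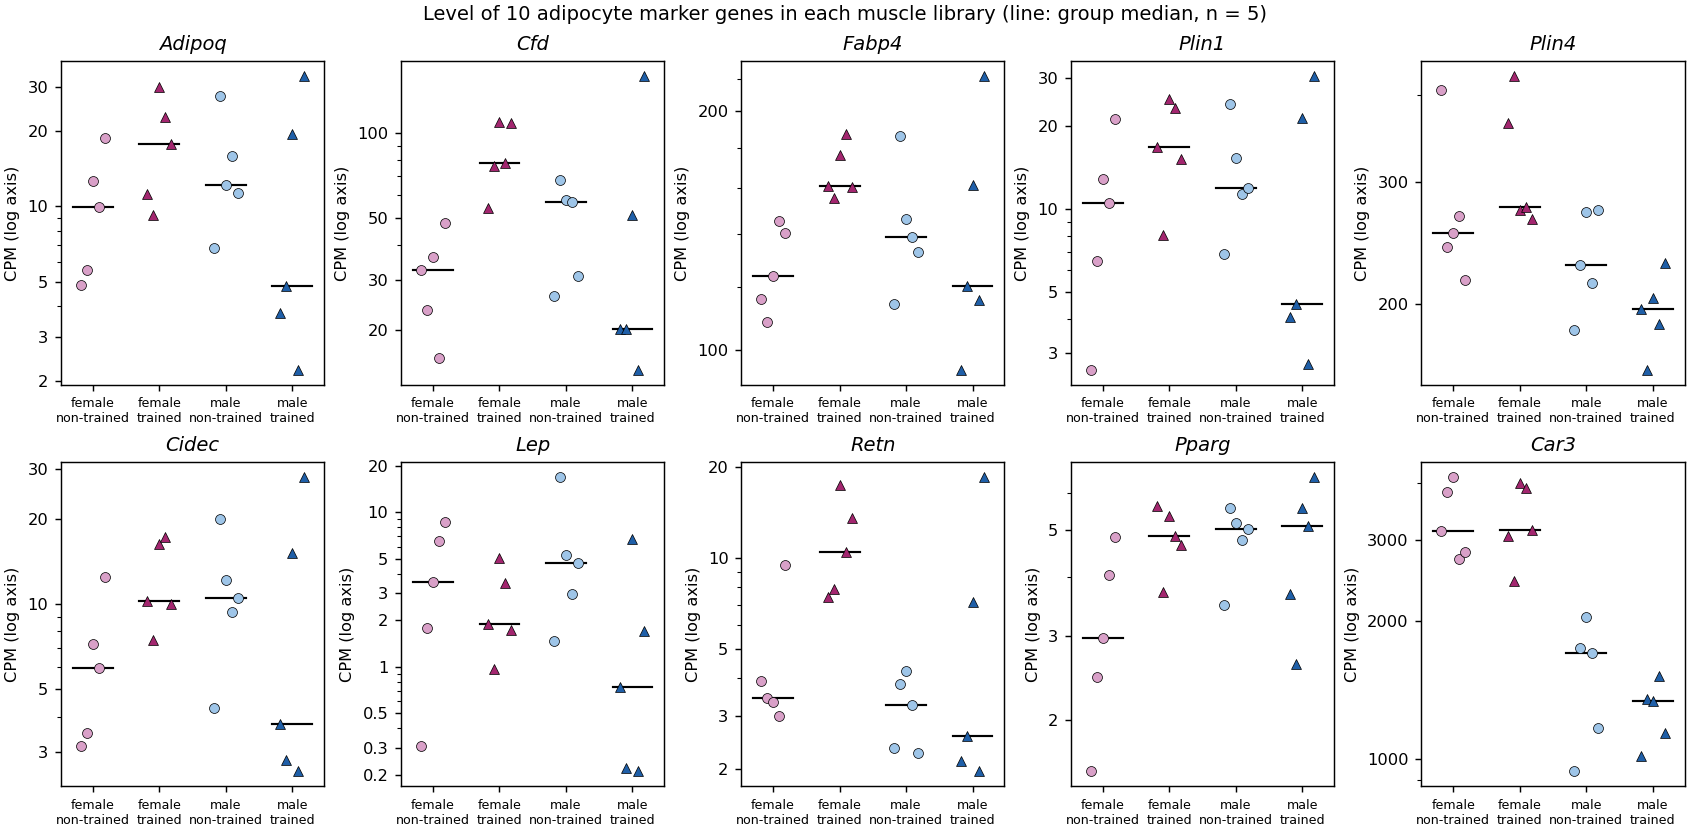
CPM (log axis) of the 10 members in each of 20 libraries, with circles for non-trained and triangles for trained mice and a line at the median of each group of 5. Car3 is lower in males than in females without overlap, while Adipoq spans 2.21 to 33.3 CPM among the trained males alone.

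Gene coordinates are those of GENCODE M21 on GRCm38. Adipoq (ENSMUSG00000022878, chr16:23146536-23158028, + strand) encodes adiponectin, a hormone made almost only by adipocytes. In females it had 4.84, 5.56, 12.7, 9.93 and 18.8 CPM in non-trained replicates 1 to 5 and 11.2, 9.27, 30.1, 22.8 and 17.7 CPM in trained replicates 1 to 5. In males it had 6.83, 27.6, 12.2, 15.9 and 11.3 CPM in non-trained and 3.74, 4.81, 19.4, 2.21 and 33.3 CPM in trained replicates. All 4 groups overlapped. Trained males included the highest library of the 20 (replicate 5) and the 3 lowest (replicates 1, 2 and 4). The same replicate 5 was also the highest for Cfd, Fabp4, Plin1, Cidec, Retn and Pparg, but stood 14th of 20 for Lep. The log2 difference between trained and non-trained was 0.82 (SE 0.63) in females and -0.21 (SE 0.62) in males, with edgeR adjusted p of 0.783 and 0.997.

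Lep (ENSMUSG00000059201, chr6:29060220-29073877, + strand) encodes leptin, the hormone by which fat signals the size of its stores. Female libraries held 0.308, 1.79, 3.53, 6.501 and 8.61 CPM in non-trained and 1.89, 0.966, 5.03, 3.51 and 1.74 CPM in trained replicates. Male libraries held 1.47, 16.9, 5.26, 2.96 and 4.69 CPM in non-trained and 0.742, 0.221, 6.73, 0.211 and 1.72 CPM in trained replicates. Groups overlapped in both sexes, and the 3 libraries with the least Lep among males were trained. These levels rest on 6 to 545 counts per library, so Lep is the least precisely measured member. The log2 difference with training was -0.65 (SE 0.89) in females and -1.71 (SE 0.90) in males, and neither passed (edgeR adjusted p 0.897 and 0.993). Single libraries moved both values: in females to -0.195 without non-trained replicate 5, -0.43 without non-trained replicate 4 and -1.02 without trained replicate 3, and in males to -0.90 without non-trained replicate 2 and -3.08 without trained replicate 3.

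Retn (ENSMUSG00000012705, chr8:3655770-3660110, + strand) encodes resistin, an adipocyte hormone in mice. Among females the level was 3.92, 3.44, 3.34, 2.99 and 9.45 CPM in non-trained and 7.39, 7.91, 17.4, 10.4 and 13.5 CPM in trained replicates. Among males the level was 2.36, 3.83, 4.22, 3.27 and 2.27 CPM in non-trained and 2.13, 2.57, 7.11, 1.97 and 18.5 CPM in trained replicates. Among females 1 non-trained library, replicate 5, reached into the range of the trained ones. Among males the difference lay in trained replicates 3 and 5, and the other 3 trained libraries were within or below the non-trained range. The log2 difference with training was 1.29 (SE 0.53) in females and 1.03 (SE 0.54) in males, and the male value was 0.11 without trained male replicate 5. Over both sexes it was 1.16 (SE 0.38), the smallest training p of the 10 members (unadjusted p = 0.00691 from edgeR, adjusted p = 0.384), and it was 0.70 without trained male replicate 5.

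Cfd (ENSMUSG00000061780, chr10:79890853-79892655, + strand) encodes adipsin, the complement protease that starts the alternative pathway. Females showed 32.6, 23.5, 36.2, 15.9 and 47.9 CPM in non-trained and 54.0, 76.0, 109.6, 78.5 and 108.6 CPM in trained replicates. Males showed 26.3, 67.8, 57.8, 56.9 and 30.9 CPM in non-trained and 20.03, 20.01, 51.2, 14.3 and 159.6 CPM in trained replicates. Every trained female was above every non-trained female, and the male groups overlapped. The log2 difference was 1.45 (SE 0.55, edgeR adjusted p 0.489) in females and 0.15 (SE 0.54, adjusted p 0.997) in males.

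Plin1 (ENSMUSG00000030546, chr7:79720218-79732903, - strand) encodes perilipin 1, which coats the adipocyte lipid droplet and controls access of lipases to it. In females the level was 2.60, 6.51, 12.9, 10.5 and 21.3 CPM in non-trained and 16.9, 8.09, 25.1, 23.3 and 15.2 CPM in trained replicates. In males the level was 6.86, 24.2, 15.4, 11.4 and 11.9 CPM in non-trained and 4.07, 4.53, 21.5, 2.74 and 30.6 CPM in trained replicates. High and low libraries were nearly those of Adipoq. Cidec (ENSMUSG00000030278, chr6:113424634-113435760, - strand), whose protein fuses small droplets into large ones, ranged from 3.16 to 12.4 CPM in non-trained females, 7.44 to 17.2 in trained females, 4.29 to 19.9 in non-trained males and 2.57 to 28.1 in trained males. The groups overlapped for both genes, and the training differences of Plin1 were 0.72 (SE 0.63) in females and -0.13 (SE 0.62) in males on the log2 scale.

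Plin4 (ENSMUSG00000002831, chr17:56100591-56109803, - strand), a perilipin of small nascent droplets, followed another order. Female values were 407, 241, 253, 268 and 217 CPM in non-trained and 364, 426, 273, 276 and 265 CPM in trained replicates. Male values were 183, 227, 272, 214 and 273 CPM in non-trained and 197, 160.5, 204, 187 and 229 CPM in trained replicates. The library highest for non-trained females, replicate 1, was the lowest of the 20 for Plin1 and Pparg. Fabp4 (ENSMUSG00000062515, chr3:10204088-10208576, - strand), a carrier of fatty acids in the cytosol, ranged from 108 to 145 CPM in non-trained females and from 156 to 187 in trained females, which did not overlap. In males its ranges were 114 to 186 CPM in non-trained and 94.4 to 222 CPM in trained libraries. Pparg (ENSMUSG00000000440, chr6:115360951-115490399, + strand), the transcription factor that drives adipocyte differentiation, had a mean of 3.18 ± 1.29 CPM (SD, n = 5) in non-trained females and 4.85 ± 0.74 in trained females, against 4.81 ± 0.79 and 4.69 ± 1.53 in non-trained and trained males.

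Car3 (ENSMUSG00000027559, chr3:14863512-14872523, + strand) encodes carbonic anhydrase 3, which converts carbon dioxide and bicarbonate in the cytosol of fibres and fat cells. Levels in females were 3145, 3834, 4126, 2735 and 2828 CPM in non-trained and 3060, 2450, 4004, 3907 and 3158 CPM in trained replicates. Levels in males were 943, 1752, 2041, 1705 and 1169 CPM in non-trained and 1016, 1353, 1339, 1517 and 1143 CPM in trained replicates. The lowest female library was above the highest male library.

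For training in females, 0 of 10 members passed the edgeR threshold, and 0% of the 15709 genes did. At an unadjusted p under 0.05 the count was 4 of 10 (Cfd, Retn, Pparg and Fabp4, named after their values were seen) against 8.57% of all genes. All trained libraries were above all non-trained ones for 2 of 10 members, Cfd and Fabp4, and for 0.637% of all genes. The log2 differences were 0.41 (SE 0.17) for Fabp4 and 0.62 (SE 0.26) for Pparg, with adjusted p of 0.53 and 0.519. Of the 10 members 8 were above 0, with a median log2 difference of 0.67 against 0.00 for all genes tested.

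For training in males, 0 of 10 members passed and 0% of all genes did. No member (0 of 10) had an unadjusted p under 0.05 by edgeR, against 4.3% of all genes, and the lowest adjusted p was 0.993. The groups overlapped for 10 of 10 members, while 1.09% of all genes did not overlap. The median log2 difference was -0.12, with 2 of 10 above 0. The value in males turned on single libraries: without trained replicate 5 the difference was -0.97 for Adipoq, -0.89 for Cidec and -0.86 for Cfd, and without non-trained replicate 2 it was 0.14 for Adipoq and 0.21 for Cidec. DESeq2 and limma-voom also called 0 of 10 members in each sex, over both sexes and for the interaction.

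Over both sexes, 0 of 10 members passed for training against 0.0127% of all genes, and 1 of 10 (Retn) had an unadjusted p under 0.05 against 9.17%. Of the training by sex interaction, the male difference minus the female one, 0 of 10 passed against 0% of all genes, and 0 of 10 had an unadjusted p under 0.05 against 4.18%. All 10 interaction values were below 0, from -1.302 (SE 0.76) for Cfd to -0.25 (SE 0.26) for Car3, with adjusted p of 0.999 for each. This sign was not particular to the members: 0 of 9 Schwann cell genes (median -1.8) and 0 of 6 erythroid genes (median -2.31) were above 0. For Schwann cell genes 9 of 9 had an unadjusted p under 0.05 by edgeR. Above 0 were also only 1 of 20 other adipocyte genes (median -0.728), 1 of 11 fibro-adipogenic progenitor genes (-0.309) and 2 of 11 capillary endothelium genes (-0.204). Slow fibre genes went the other way, with 10 of 10 above 0 (median 0.723). Lipid droplet (8 of 13, median 0.058), macrophage (6 of 10, 0.128) and synthesis genes (10 of 19, 0.0078) were split. The difference between the sexes in their response to training was thus not detectable for any member at this spread.

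**Figure D2:**
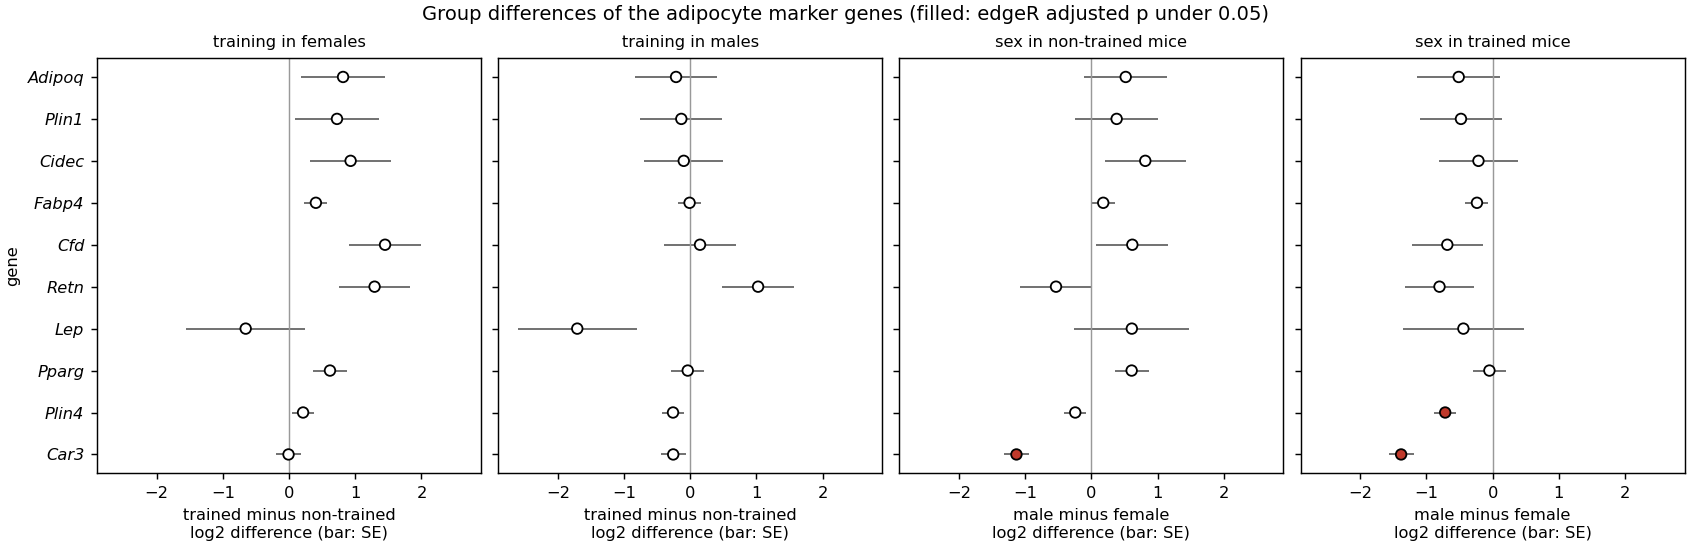
Log2 differences (edgeR, with SE bars) of the 10 members for training in each sex (left) and for males minus females, non-trained and trained (right). Training bars are wide for Lep, Adipoq, Plin1 and Cidec (SE 0.60 to 0.90), and Car3 lies at -1.13 and -1.38 in the comparisons of sex.

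Between the sexes, 1 of 10 members passed in non-trained mice, where 5.21% of all genes passed (2.07% as lower in males), and 2 of 10 in trained mice, where 5.6% did (2.22% as lower). DESeq2 and limma-voom called the same numbers. Car3 was lower in males by 1.13 on the log2 scale in non-trained mice (2.19-fold, log2 difference -1.13, SE 0.19, edgeR adjusted p = 0.00153) and lower in trained mice (2.60-fold, -1.38, SE 0.19, adjusted p = 0.000209). Plin4 was lower in trained males (1.64-fold, log2 difference -0.72, SE 0.17, adjusted p = 0.0156), and its difference in non-trained males, -0.24 (SE 0.17, adjusted p 0.415), did not pass. The groups did not overlap wherever a member passed. Of all genes, 2.39% in non-trained and 3.46% in trained mice had every male library below every female one. The remaining 8 members did not pass in either state, with differences between -0.53 for Retn and 0.81 for Cidec in non-trained mice and between -0.80 for Retn and -0.05 for Pparg in trained mice. Without trained male replicate 5, Cfd (-1.69, adjusted p 0.0241) and Retn (-1.71, adjusted p 0.0244) also passed as lower in trained males.

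Genes of slow fibres moved with sex beside Car3. In non-trained males 6 of 10 slow fibre genes were lower (median log2 difference -2.16), among them Tnnc1 (-2.95, adjusted p 0.0142) and Myh7 (-2.89, adjusted p 0.0164), and in trained males 1 of 10 was (Myl2, -1.96, adjusted p 0.0419; median of the list -1.64). Their summed level was 1261 to 5231 CPM in non-trained and 598 to 6547 CPM in trained females, against 406 to 1772 and 813 to 2193 CPM in males, with Myh7 above 0 in every library. Within females Car3 ran opposite to the mean log2 CPM of this list (r = -0.71, rho = -0.68, permutation p = 0.00915 and 0.0352, adjusted over 8 such relations 0.0732 and 0.282, r = -0.58 without the 2 outermost libraries), and within males r was -0.48 and rho -0.38 (permutation p = 0.156 and 0.277, adjusted 0.415 and 0.743, r = -0.40 without 2). DESeq2 called 10 of 10 slow fibre genes lower in non-trained and 6 of 10 in trained males, and limma-voom 8 and 0. Of 8 fast fibre genes 0 passed between the sexes by edgeR, DESeq2 or limma-voom, and 0 had an unadjusted p under 0.05 by edgeR. The part of fibre type in the difference of Car3 was not tested.

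Levels of several members ran together from library to library. Of the 45 pairs, 43 had a Pearson correlation of log2 CPM above 0, with a median r of 0.57. A total of 26 passed a permutation test after Benjamini-Hochberg adjustment over the 45. With Plin4 and Car3 left out, a choice made after the data were seen, the median of the remaining 28 pairs was 0.75, from 0.29 to 0.96. These 2 ran least with the rest, so the higher median follows from leaving them out. All pairs share the library and its scaling, and the 9 pairs with Car3 also carry its difference between the sexes. Adipoq ran with Plin1 (r = 0.96, rho = 0.95, r = 0.94 without the 2 libraries farthest from the Adipoq median) and with Cidec (r = 0.95, rho = 0.94, and 0.96 without them). For both pairs the permutation p were 1e-05, the smallest that 100000 permutations can give, with adjusted values of 5e-05 for r and 6.43e-05 for rho. Within the sexes r was 0.93 in females and 0.98 in males for Plin1, and 0.96 in both for Cidec.

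The hormones ran together to different degrees. Cfd and Retn had r = 0.88 and rho = 0.86 (permutation p = 1e-05 for each, adjusted 5e-05 and 6.43e-05, 0.83 without the outermost 2 libraries; 0.93 in females and 0.88 in males). Lep had r = 0.76 and rho = 0.68 with Adipoq (permutation p = 3e-05 and 0.00126, adjusted 0.000112 and 0.0027, 0.67 without 2). With Retn, Lep had r = 0.29 and rho = 0.29 (permutation p = 0.215 and 0.209, adjusted 0.303 and 0.279, 0.08 without 2), and with Cfd r = 0.39 and rho = 0.30 (permutation p = 0.0922 and 0.199, adjusted 0.143 and 0.279, 0.34 without 2). With the mean of each group subtracted, r was 0.56 for Lep with Retn, 0.48 for Lep with Cfd and 0.81 for Lep with Adipoq, each above its pooled value. Pparg had r = 0.59 and rho = 0.64 with Adipoq (permutation p = 0.00579 and 0.0032, adjusted 0.0118 and 0.00655, 0.83 without 2). Fabp4, though it varied little, had r = 0.86 and rho = 0.85 with Adipoq (permutation p = 1e-05 and 2e-05, adjusted 5e-05 and 0.000112, 0.87 without 2).

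Plin4 and Car3 stood outside this pattern. The median r of Plin4 with the other 9 members was 0.17 over all libraries, -0.27 within females and 0.55 within males. For Plin4 and Lep r was -0.78 within females and 0.70 within males; this contrast of the sexes was not tested. Car3 falls into separate ranges by sex, so its own correlations are given within a sex only: the median r with the other 9 was 0.11 in females and 0.26 in males.

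**Figure D3:**
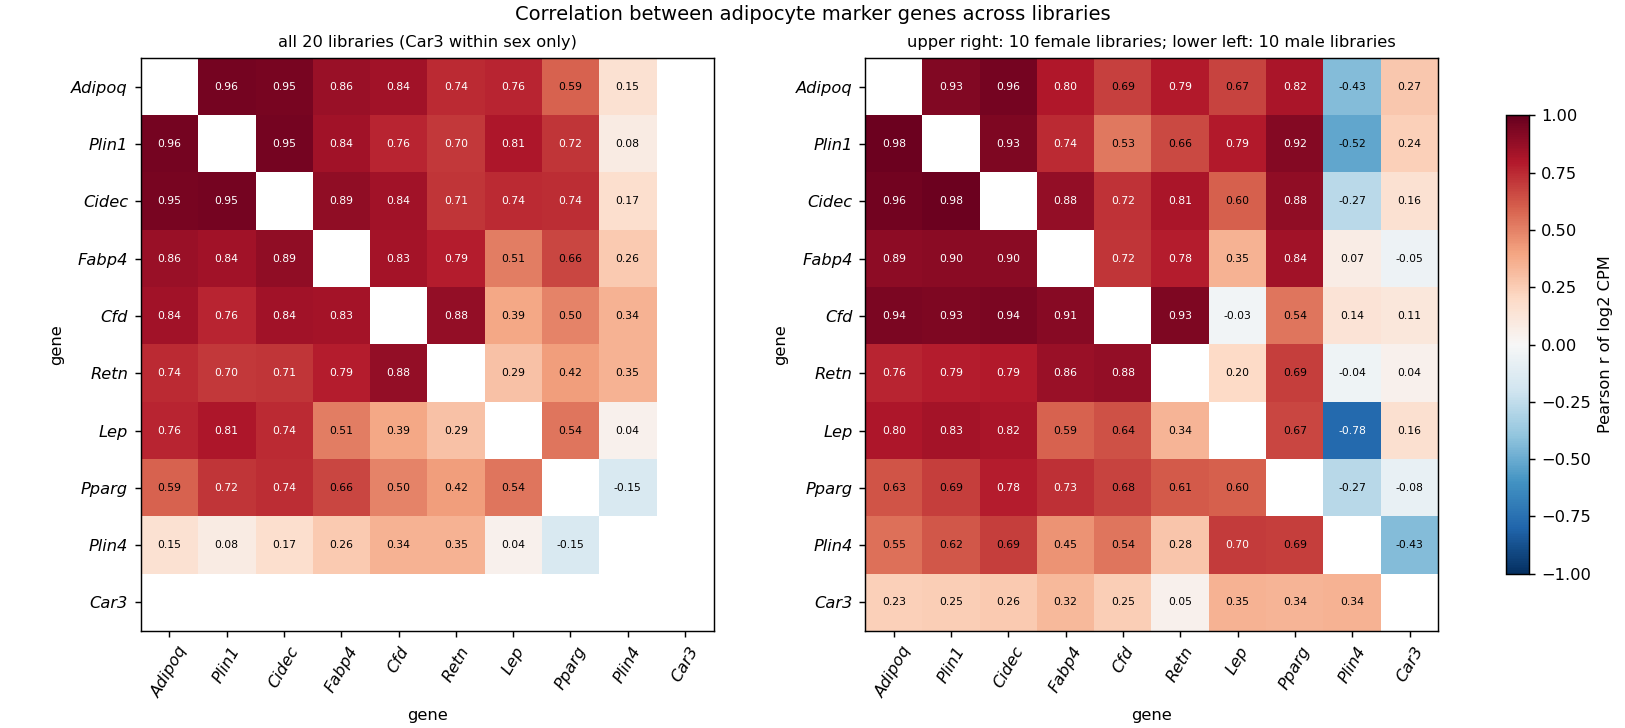
Pearson r of log2 CPM between each pair of the 10 members over 20 libraries, on a colour scale (left, pooled values of Car3 left blank), and within females (right, above the diagonal) and males (right, below it). Adipoq, Plin1 and Cidec form the tightest block (0.95 to 0.96), and Plin4 with the other 9 has a median of 0.17.

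The size of the shared variation differed between members. Per unit of log2 CPM of Adipoq, the fitted slope was 0.96 for Plin1, 0.91 for Cidec, 0.77 for Cfd, 0.72 for Retn and 1.26 for Lep, but 0.28 for Pparg, 0.25 for Fabp4 and 0.05 for Plin4. Fabp4 thus kept the order of the libraries with a shallow slope. Capillary endothelium genes, which share this tissue with Fabp4, had a summed level of 441 to 827 CPM, and r of Fabp4 with their mean was 0.37 in females and 0.42 in males (permutation p = 0.296 and 0.234, adjusted 0.473 and 0.468, 0.13 and -0.24 without 2 libraries). Its rho was 0.01 and 0.08 (permutation p = 1.0 and 0.839, adjusted 1.0 and 0.989).

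**Figure D4:**
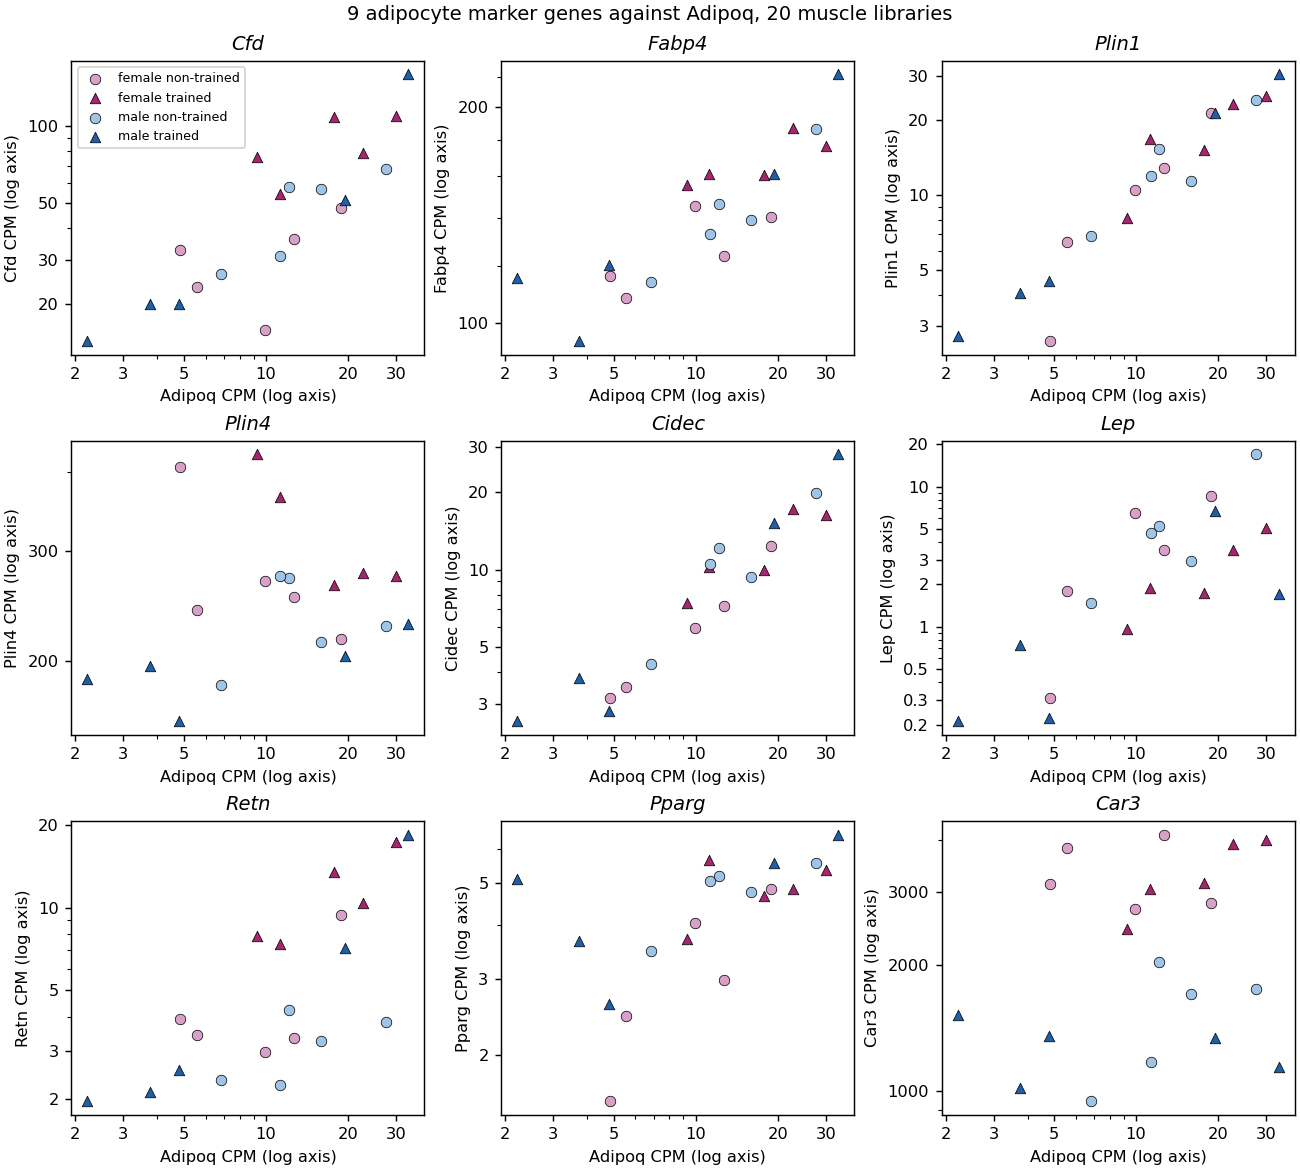
CPM of each of the other 9 members against CPM of Adipoq in the same library (both log axes), coloured by group. Plin1 and Cidec lie along a line with slopes of 0.96 and 0.91 on the log2 scale, Fabp4 along a shallow one (0.25), and Car3 splits into a female and a male band.

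Dividing each CPM by that of Adipoq in the same library gives the level of a member relative to adiponectin. The ratio of Plin1 had a median of 1.06 in non-trained females, 0.87 in trained females, 1.004 in non-trained males and 1.09 in trained males, and the SD of its log2 over 20 libraries was 0.32. Cidec had a similar SD of 0.33. The ratio of Retn had medians of 0.50 and 0.66 in non-trained and trained females and 0.21 and 0.56 in non-trained and trained males. In males it ranged from 0.139 to 0.347 without training and from 0.367 to 0.889 with it, so the male groups did not overlap by this measure, whereas they did by CPM. Of the tested genes other than Adipoq, 0.0255% (4 genes, Retn among them) had every trained male above every non-trained male in this ratio. A higher median ratio in trained than in non-trained males was found for 97.3%. The 3 male libraries lowest in Adipoq were trained. In females, where the Retn ratio overlapped, 0.00637% of genes separated this way and 5.04% had a higher median ratio in trained mice. The median ratio was likewise higher in trained males for Fabp4 (25.1 against 11.8), Car3 (271.5 against 107), Plin4 (33.4 against 22.3) and Pparg (0.546 against 0.426). The same held for Cfd (4.79 against 3.58), Cidec (0.845 against 0.722) and Plin1 (values above), with overlap for each of these members. The ratio of Lep went the other way in males, with medians of 0.42 in non-trained and 0.095 in trained libraries. In females its medians were 0.32 and 0.15 in non-trained and trained libraries. Most genes shared this direction in females, where 5.04% had a higher median ratio in trained mice. The Lep ratio overlapped between the groups in both sexes. The ratios were examined after the levels had been seen.

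With log2 CPM of Adipoq as a covariate in the edgeR fit, added after the data were seen, no member passed for training over both sexes (0 of 9; 0.0318% of all genes did, and 4 of 9 members, Retn, Lep, Fabp4 and Cfd, had an unadjusted p under 0.05, against 9.55% of all genes). Retn was nearest, with a log2 difference of 0.87 (SE 0.18, adjusted p 0.0978, from 0.74 to 0.94 when any 1 library was left out). Lep had -1.36 (SE 0.38, adjusted p 0.262, from -1.73 to -1.16). Cfd had 0.52 (SE 0.20), Plin1 0.07 (SE 0.14) and Cidec 0.17 (SE 0.12). Retn was 0.67 (SE 0.26) in females and 1.06 (SE 0.26) in males, and Lep -1.61 (SE 0.54) and -1.11 (SE 0.57). The standard error of Retn was 0.38 without the covariate. The 5 genes that passed in this fit were Fasn (2.16), Slc25a1 (1.69), Slc25a10 (0.62), Gm17167 (-3.02) and Gm13301 (-4.35).

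**Figure D5:**
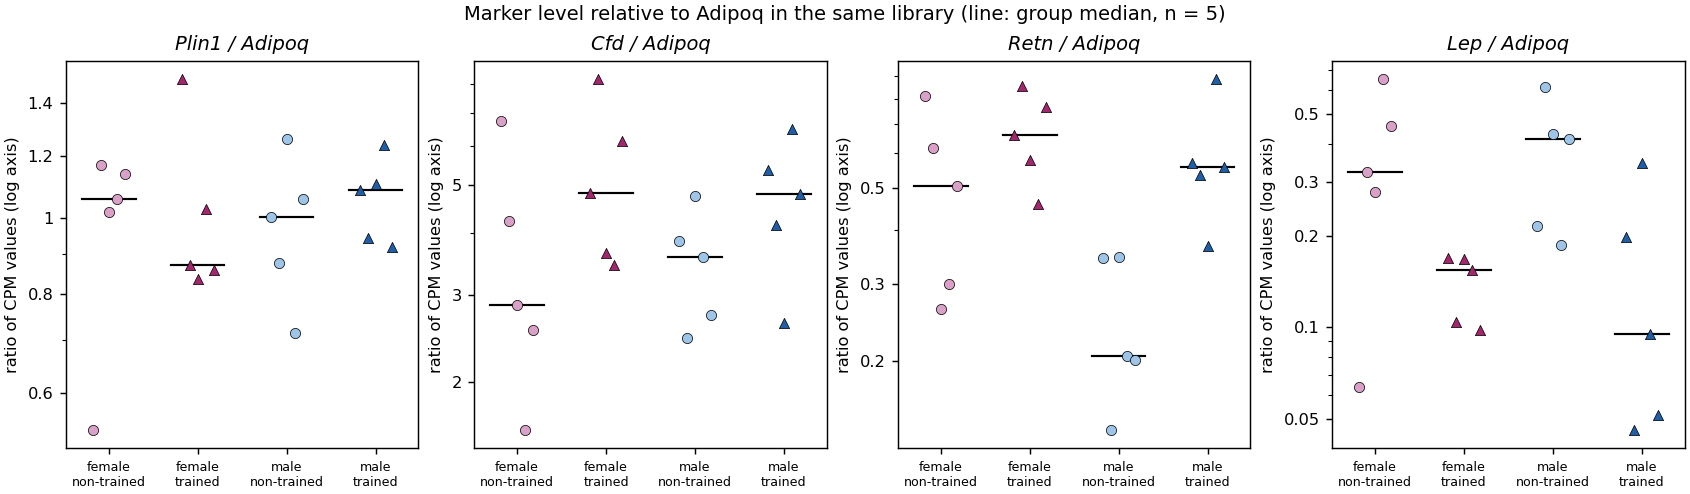
Ratio of the CPM of members to the CPM of Adipoq in each library (log axis), by group with the group median as a line. The ratio of Retn in trained males (0.367 to 0.889) lies above that in non-trained males (0.139 to 0.347). The ratio of Lep has a median of 0.095 in trained and 0.42 in non-trained males.

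Among 18 measures set against Adipoq over 20 libraries, the mean log2 CPM of 20 other adipocyte genes was the only one to pass after adjustment (r = 0.95, rho = 0.94, permutation p = 1e-05 for each, adjusted 0.00018, 0.95 without the outermost 2 libraries, 0.95 in females and 0.97 in males). Of these 20 genes, Lgals12 (r = 0.92), Acvr1c (0.89) and Slc7a10 (0.88) were closest, while Gpd1 (0.03) and Lpl (-0.23), which fibres also express, did not follow it. Schwann cell genes had r = 0.50 and rho = 0.54 (permutation p = 0.026 and 0.0157, adjusted 0.156 and 0.141, 0.52 without 2), with r of 0.89 in females and 0.11 in males. Genes of fibro-adipogenic progenitors, the stromal cells that can become adipocytes, had r = 0.37 and rho = 0.41 (permutation p = 0.0998 and 0.0759, adjusted 0.406 and 0.353, 0.48 without 2), with 0.74 in females and 0.26 in males. Adipoq and the library total had r = -0.37 and rho = -0.36 (permutation p = 0.113 and 0.115, adjusted 0.406 and 0.414, -0.49 without 2), with -0.73 in females and 0.04 in males. For training in females, 9 of 9 Schwann cell genes were above 0 with a median of 1.09, and 10 of 11 progenitor genes with a median of 0.20, with 0 passing in each list by edgeR. At an unadjusted p under 0.05 by edgeR the counts there were 8 of 9 and 0 of 11, against 8.57% of all genes. For training in males, 0 of 9 Schwann cell genes were above 0 (median -0.655), and 3 of 11 progenitor genes (median -0.096). Summed Schwann cell genes had 46.4 to 174 CPM in non-trained and 83.6 to 336 CPM in trained females, and progenitor genes 253 to 692 and 490.1 to 685 CPM. Their part in the values of the members was not tested.

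By r with Adipoq, members took ranks 1 (Plin1), 2 (Cidec), 15 (Fabp4), 25 (Cfd), 48 (Lep), 61 (Retn), 160 (Pparg) and 4536 (Plin4) among all other tested genes, Car3 being left out as above. Among the 11692 named genes outside the members with a mean of at least 1 CPM, 26 had an r above 0.8. The 10 of these most like Adipoq were Slc1a5 (r = 0.93), Klhdc7a, Smoc1, Lgals12, B3galt2, Prkar2b, Acvr1c, Tmem45b, Chst1 and Slc7a10 (r = 0.88). Slc1a5, a glutamine transporter, had 11.6 to 42.0 CPM. The 5 least like it were Zfp442 (r = -0.79), Smim13 (-0.72), Ung (-0.69), Nkiras1 (-0.69) and Trmt1l (-0.68).

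Genes that act with the members were listed by role, and 0 of them passed for training over both sexes by edgeR or limma-voom. DESeq2 called 15 of all genes tested higher, and 5 of these were synthesis genes (Slc25a1, Acly, Fasn, Thrsp and Elovl6, named after their values were seen). It called 0 of the other listed genes. The summed level of the synthesis genes was 3399 CPM in trained male replicate 5. That library was also the highest for Adipoq, Cfd, Fabp4, Plin1, Cidec, Retn and Pparg. The sum was 1479 to 1676 CPM in the other trained and 1471 to 1609 CPM in non-trained males. In females it was 1354 to 1640 CPM in non-trained and 1565 to 2794 CPM in trained libraries. Without trained male replicate 5, a comparison added after the data were seen, DESeq2 called 5 synthesis genes (Slc25a1, Acaca, Acly, Fasn and Thrsp) among 27 genes in all. There edgeR called 1 (Slc25a1) among 2 genes in all, and the median of the list by edgeR was 0.25 (0.44 with that library). Of 19 genes of fatty acid and triglyceride synthesis, 15 were above 0 with a median log2 difference of 0.44, and 11 had an unadjusted p under 0.05. Among all genes the share with such a p was 9.17%, which also applies to the counts of the lists below. Those with the smallest p were Fasn, the fatty acid synthase (2.58, SE 0.52, adjusted p 0.171), Slc25a1, the mitochondrial citrate carrier (2.04, SE 0.43), Thrsp (1.301, SE 0.31) and Elovl6, an elongase (2.68, SE 0.65). The mean of this list had r = 0.52 with Adipoq and rho = 0.40 (permutation p = 0.0184 and 0.0785, adjusted 0.156 and 0.353, 0.57 without 2), 0.80 in females and 0.33 in males. Of the 20 other adipocyte genes, 17 were above 0 with a median of 0.27 and 4 had an unadjusted p under 0.05: Orm1 (1.52, SE 0.42), Agpat2 (0.94, SE 0.26), Adig (0.60, SE 0.20) and Mrap (1.02, SE 0.42). Of 13 lipid droplet and lipolysis genes 7 were above 0 with a median of 0.01, 2 had an unadjusted p under 0.05, and Plin3 was at 0.45 (SE 0.13, adjusted p 0.323). Of 14 adipogenic transcription factors 6 were above 0 with a median of -0.05, and 0 had an unadjusted p under 0.05.

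Receptors of the hormones and complement partners of Cfd formed another list. Of these 9 genes, 0 passed for training over both sexes, and 0 had an unadjusted p under 0.05 by edgeR against 9.17% of all genes. Above 0 were 7 of them, with 0.31 (SE 0.24) for the leptin receptor Lepr and 0.02 (SE 0.04) for the adiponectin receptor Adipor2. In non-trained males 2 were higher, C3 (1.29, SE 0.27, adjusted p 0.0101), the complement protein whose cleavage Cfd promotes, and C3ar1 (1.76, SE 0.47, adjusted p 0.0339), the receptor of its fragment. There 5 of 10 macrophage genes were also higher by edgeR, 10 by DESeq2 and 7 by limma-voom, with summed levels of 146 to 341 CPM in non-trained males against 42.6 to 125 CPM in non-trained females. In trained males C3ar1 was higher (2.55, SE 0.48, adjusted p 0.00409), as were 6 of 10 macrophage genes by edgeR, 9 by DESeq2 and 2 by limma-voom, with summed levels of 117 to 672 CPM in trained males against 66.9 to 138 CPM in trained females. The part of macrophages in the levels of C3 and C3ar1 was not tested. Klf15, an adipogenic factor, was lower in males in both states (-0.63 and -0.78, adjusted p 0.0364 and 0.0116).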

How the data were processed

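The labels' protocols name poly(A) selection, a strand-directional kit and an Illumina instrument. Each library had a table of RSEM expected counts, as deposited by the authors, with TPM in another column per the file headers. Among the tools in the submitters' processing notes are RSEM 1.3.1 and STAR 2.5.1, beside cutadapt and Trim Galore, and GRCm38 is the build named. The roles of these tools are not recorded, and no source used here gives the annotation release. GENCODE M21 gave symbols for 53360 of 53465 identifiers, and 0.00673% of counts fell outside these. Reads that fit several genes are shared out by estimation in RSEM.

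Expected counts were rounded to whole numbers, filtered with filterByExpr (minimum count 10) and scaled by TMM. A robust quasi-likelihood model of edgeR 4.0.16 (R 4.3.3) took all 4 groups together, leaving 16 residual degrees of freedom. Benjamini-Hochberg adjustment ran over 15709 genes, with calls at 0.05. The 6 comparisons were training in each sex, its mean over the sexes, its interaction with sex, and sex in each training state. DESeq2 1.42.0 and limma-voom (limma 3.58.1) were alternatives. The fits were tested on simulated data. Correlations used log2 CPM with a prior count of 2 and 2-sided permutation tests of 100000 resamples. TPM served only to compare levels between genes and as an alternative scale of the correlations.

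The members and gene lists were chosen with earlier results of these data known. All 10 members are named, up to 4 genes of each other list by the smallest unadjusted p in the comparison described, and the 10 genes most and 5 genes least correlated with Adipoq among named genes with a mean of at least 1 CPM. The analysis with Adipoq as a covariate and the ratios were added after the data were seen. So were the median r of 8 members and the 8 relations within a sex. The genes of 2 lists given as closest to or farthest from Adipoq were also picked then. Samples other than these 20 were not used here.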

Additional observations from a re-analysis of the deposited data

Results flagged for a closer look

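A library was picked out where its gap to the next value was more than 0.71 of the range of its group of 5, Dixon's 95% limit. For normal values the limit flags about 1 in 20 groups. Here it was applied to CPM without logs in 40 groups of 5 (10 members in 4 groups), and several members ran together. The share that chance would flag here is therefore not known. Cfd had 159.6 CPM in trained male replicate 5, where the other 4 trained males had at most 51.2. Plin4 had 406.9 CPM in non-trained female replicate 1, the library with the fewest genes above 0, against at most 268 in the other non-trained females. Lep had 16.9 CPM in non-trained male replicate 2 (next highest 5.26) and 6.73 CPM in trained male replicate 3 (next highest 1.72). Retn had 9.45 CPM in non-trained female replicate 5 (next highest 3.92).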

How the results depend on the processing

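Alternatives other than leaving out 1 library gave 418 values of the members, and 415 kept direction and side of the threshold. Among these alternatives were fits with only the groups compared, which did not use all libraries. The other 3, none past the threshold, changed sign: Cfd for training in males (-0.37 with limma-voom), Pparg for sex in trained mice (0.030 with library size only) and Fabp4 for training in males (0.0086 without the low-count filter). With DESeq2 the genes called were 33 for training in females, 5 in males, 30 over both sexes, 1 for the interaction, and 1465 and 1401 for sex in non-trained and trained mice, against 0, 0, 2, 0, 818 and 880. Over both sexes limma-voom called 0 and the unfiltered fit 1. Sex gave 558 calls in trained mice without the filter and 448 in non-trained mice with only the groups compared. Of the sex calls 493 of 818 (non-trained) and 532 of 880 (trained) were higher in males, against 541 of 721 and 832 of 1045 with library size only. The cause was not tested. Leaving out 1 library gave 435 to 1007 and 494 to 818 calls for sex, 0 to 1 for training in males and 0 to 7 over both sexes. The sex counts moved most without non-trained female replicate 2 (507) or non-trained male replicates 2 (499) or 3 (435), and without trained female replicate 4 (578) or trained male replicates 2 (582) or 3 (494). The same step changed signs of differences that had not passed: for sex, Lep -0.20 to 1.07 (non-trained), Cidec -1.01 to 0.033 and Pparg -0.19 to 0.10 (trained); for training in females, Car3 -0.095 to 0.083; for training in males, Adipoq -0.97 to 0.14, Cfd -0.86 to 0.39, Cidec -0.89 to 0.21, Fabp4 -0.22 to 0.11, Plin1 -0.77 to 0.16 and Pparg -0.18 to 0.11; over both sexes, Adipoq -0.076 to 0.48, Plin1 -0.021 to 0.50 and Plin4 -0.086 to 0.066; with the Adipoq covariate, Plin1 -0.022 to 0.12 and Plin4 -0.083 to 0.067. Car3 passed in every such fit (adjusted p up to 0.00534 in non-trained mice and up to 0.00102 in trained mice), as did Plin4 in trained mice (up to 0.0479). The median r was 0.75 for the 8 members other than Plin4 and Car3, which were left out after the data were seen. It was 0.53 to 0.67 for all 10 members with 1 library left out. The relation of Adipoq to fatty acid synthesis passed with group means subtracted (r = 0.67, permutation p adjusted 0.00837). Its weak relations to keratinocyte genes (0.020 by TPM), mammary genes (0.0096 by TPM, 0.042 with group means subtracted) and the mitochondrial share (-0.042 without non-trained female replicate 1) changed sign. Low counts limit Lep most. No paired analysis was possible because the labels carry no replicate numbers that tie libraries across groups.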
